A study of Mus musculus with 18 samples.

Results

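The 10 genes described here encode the parts with which a cell shows peptides to T cells. They are the class I light chain *B2m*, the class I heavy chains *H2-K1*, *H2-D1* and *H2-T23*, the peptide transporter and loading genes *Tap1*, *Tap2* and *Tapbp*, and the class II genes *Cd74*, *H2-Aa* and *H2-Ab1*. They were chosen by their measured difference between mature pit cells and pre-pit cells in earlier results of these data, in the corpus and in the antrum, so that difference is described here without a test. The 10 genes are 10 of the 31201 gene names listed in either count table, and all 10 were listed in both. In GRCm39, the build of the counts, *B2m* lies on chromosome 2 (chr2:121977957-121983594) and the other members but *Cd74* on chromosome 17, from *Tapbp* (chr17:34134873-34148267) to *H2-T23* (chr17:36340229-36345571). The cells came from stomachs of untreated male C57BL/6J wild-type mice aged 10 weeks and were profiled by Quartz-Seq2, a plate-based method that counts mRNA molecules through unique molecular identifiers (UMIs) near the 3′ end of the transcript. Dataset 1 held 491 cells from gastric units of the corpus and the antrum. They came from 2 pools of 3 mice (tube 1, 204 cells and 9242558 UMIs; tube 2, 287 cells and 10664171 UMIs), sorted after dead cells were removed with a dye (ToPro3 in the labels, propidium iodide in the study's methods). Dataset 2 held 3993 cells from corpus units. As in dataset 1, each of 2 operators had prepared 1 pool of 3 mice. The pools of dataset 2 were K (1950 cells and 67173249 UMIs) and T (2043 cells and 72438153 UMIs). Its cells were sorted as Hoechst-positive, ToPro3-negative cells. Every mouse was untreated and wild type, so the comparisons are between cell types, taken from the clusters that the authors deposited. The region of a cell in dataset 1 is known through its cluster and not from its tube. Those clusters were made from the same counts, and each pool mixed the cells of 3 mice, so the error given is the spread between 2 pools.

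Class I molecules consist of a heavy chain and β2-microglobulin and are made by nearly every nucleated cell. Peptides cut by the proteasome are pumped into the endoplasmic reticulum by TAP1 and TAP2, and tapasin, encoded by *Tapbp*, holds the class I molecule at the transporter while it is loaded. Class II molecules, which pair an α chain (*H2-Aa*) with a β chain (*H2-Ab1*) and are escorted by the invariant chain CD74, are chiefly made by dendritic cells, macrophages and B cells, although epithelial cells can be induced to make them by interferon γ. In the corpus gland, isthmus progenitors divide and give rise upwards to pre-pit cells and then mature surface pit cells, and downwards to neck cells. Parietal cells secrete acid and chief cells secrete zymogen. The study describes an earlier view that chief cells arise from neck cells, and recent proposals that they renew themselves.

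Promoter sequence from RefSeq (GRCm38.p6) was matched for 7 of the 10 genes. Within the 250 bases before the transcription start, on both strands, 3 letter patterns were searched. These were GAAA, any 2 bases and GAAA (the core of the interferon-stimulated response element), GGGGA joined directly to TTCCC (the NF-κB site of enhancer A) and TGACG followed after 15 to 25 bases by ATTGG or CCAAT (the spacing of the X2 and Y boxes through which NLRC5 and CIITA act). Of 32851 promoters, 2.98% held the first pattern, 0.0852% the second and 0.712% the third. The windows that hold a match are shown because the class I heavy and light chains, which are described together below, differ in which patterns they carry. Capitals mark the matched letters, and each sequence reads 5′ to 3′ in the direction of the gene.
B2m (chr2:122147538-122147648, plus strand): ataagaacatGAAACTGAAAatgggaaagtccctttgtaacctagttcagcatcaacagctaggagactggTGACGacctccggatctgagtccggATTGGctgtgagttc
H2-K1 (chr17:34000349-34000468, minus strand): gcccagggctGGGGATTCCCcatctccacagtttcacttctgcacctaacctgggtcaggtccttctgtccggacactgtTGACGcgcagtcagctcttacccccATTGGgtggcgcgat
H2-D1 (chr17:35262913-35263032, plus strand): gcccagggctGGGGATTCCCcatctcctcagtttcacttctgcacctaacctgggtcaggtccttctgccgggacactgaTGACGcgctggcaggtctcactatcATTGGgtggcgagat
H2-T23 (chr17:36032806-36032835, minus strand): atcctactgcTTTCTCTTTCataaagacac
H2-Aa (chr17:34287857-34287907, minus strand): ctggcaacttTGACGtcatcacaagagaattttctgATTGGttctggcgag
The *H2-K1* and *H2-D1* windows carried the NF-κB letters and the X2 and Y spacing, *B2m* the interferon letters and the X2 and Y spacing, and *H2-Aa* the X2 and Y spacing alone. *H2-T23* carried the interferon letters, on the opposite strand, 124 bases before its start, and neither of the other patterns. No pattern was found in the windows of *Tap1* and *Tapbp*. A match describes letters, not binding. Only exact letters were searched, so a window without a pattern, such as those of *H2-K1* and *H2-D1* for the interferon letters, can still hold a variant of that element.

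The levels of the class I genes differed between the 6 epithelial types of dataset 2. Levels are given as UMIs per 1000000 UMIs (CPM) of the summed cells of a type in a pool, mean ± SD over 2 pools. They are compared between cell types and not between genes. Mature pit cells (121 cells, marked by *Aqp3*) or neck cells (1247 cells, marked by *Muc6*) had the highest level of each, and parietal cells (702 cells, marked by *Atp4a*) the lowest level of each heavy chain, followed by chief cells (180 cells). *B2m* stood at 764 ± 1.41 CPM in neck cells, 740 ± 29.6 in mature pit cells, 607 ± 37.2 in chief cells, 466 ± 6.17 in isthmus cells (1285 cells in 5 clusters), 359 ± 10.5 in parietal cells and 353 ± 4.82 in pre-pit cells (291 cells). Neck and mature pit cells did not differ beyond their spread for *B2m*, and neither did parietal and pre-pit cells. *H2-K1* stood at 791 ± 50.6 CPM in neck cells, 746 ± 4.30 in mature pit cells, 642 ± 9.22 in isthmus cells, 561 ± 6.05 in pre-pit cells, 322 ± 22.4 in chief cells and 189 ± 2.67 in parietal cells. *H2-D1* was at 728 ± 59.96 CPM in mature pit cells, followed by isthmus (485 ± 10.6), neck (462 ± 38.2) and pre-pit cells (454 ± 18.0), of which the neck pools overlapped both others, then chief (200.2 ± 30.9) and parietal cells (133 ± 2.61). The order thus ended with the acid- and zymogen-secreting cells for both classical heavy chains but not for the light chain. The chief cell levels depend on the scaling. With the trimmed mean of M values (TMM), *B2m* was highest in chief cells (887 ± 44.4, against 748 ± 2.10 in mature pit cells), and *H2-K1* was at 470.4 ± 27.4 in chief cells and 510.1 ± 10.7 in isthmus cells.

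*H2-T23*, which encodes Qa-1, a non-classical class I chain that presents signal peptides to NK cell and CD8 T cell receptors, had a wider range than the classical chains. It stood at 93.7 ± 22.1 CPM in mature pit cells, 29.8 ± 1.76 in neck cells, 21.6 ± 1.06 in pre-pit cells, 17.1 ± 1.35 in isthmus cells, 5.77 ± 2.17 in chief cells and 2.92 ± 0.184 in parietal cells. The 2 pools of mature pit cells gave 78.0 and 109 CPM, both above every pool of the other 5 types.

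Among the transporter and loading genes, *Tap1* stood at 28.2 ± 0.0154 CPM in mature pit cells, 12.4 ± 0.129 in isthmus cells, 11.98 ± 0.604 in neck cells, 7.18 ± 2.19 in pre-pit cells, 4.53 ± 0.129 in chief cells and 2.51 ± 0.125 in parietal cells. *Tap2* had fewer UMIs and more overlap. It was at 14.0 ± 6.03 CPM in mature pit cells and 13.9 ± 2.53 in neck cells, and between 5.69 and 8.05 in the other 4 types. *Tapbp* varied least. It ranged from 56.7 ± 8.82 CPM in chief cells to 126 ± 0.886 in mature pit cells, and parietal cells, which were lowest for *Tap1*, held 101 ± 2.84. With TMM the lowest *Tapbp* level was that of isthmus cells (75.3 ± 1.00, against 83.03 ± 13.9 in chief cells), and *Tap2* was at 11.8 ± 5.63 in chief and 11.6 ± 2.38 in neck cells.

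**Figure D1:**
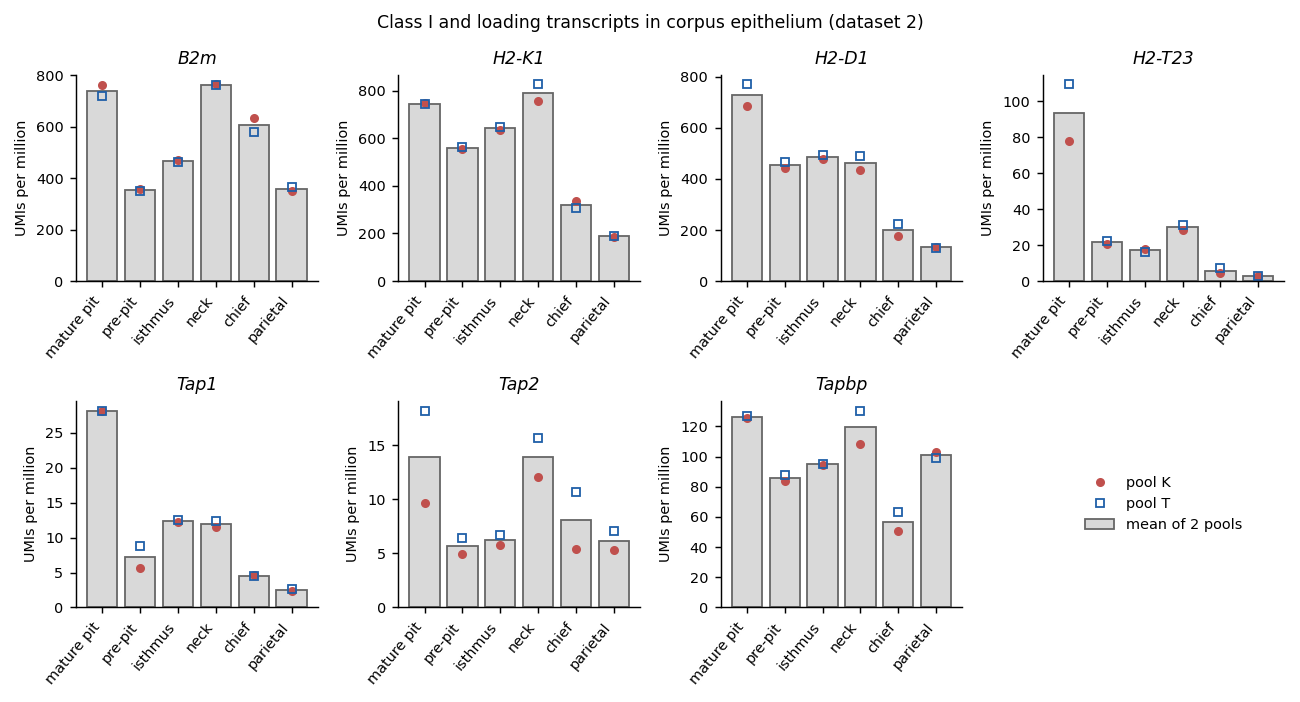
Level of each class I and loading gene (CPM, axes from 0) in the 6 epithelial types of dataset 2; bars are the mean of 2 pools, circles pool K and open squares pool T. The mature pit points of *H2-T23* (78.0 and 109) and *Tap1* (28.2 and 28.2) lie above all other types, and the parietal bars are lowest for *H2-K1*, *H2-D1*, *H2-T23* and *Tap1*.

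Several types were made of more than 1 cluster. The 4 neck clusters ran from 654 to 940 CPM for *B2m* and from 25.3 to 36.5 CPM for *H2-T23*, and the 5 isthmus clusters from 385 to 532 and from 13.5 to 23.5. The top isthmus value of *H2-T23* was that of isthmus cluster 11 (179 cells), whose leading genes by fold, among them *Cym*, *Krt5*, *Chil4* and *Krt14*, include keratins of basal cells and none of the isthmus markers. The 2 parietal clusters differed, and the heavy chains did not all go the same way. *H2-K1* was at 138 ± 4.80 CPM in parietal cluster 1 and 275 ± 30.2 in parietal cluster 8, while *B2m* went the other way with 409 ± 22.2 and 277 ± 19.6. *H2-T23* was lower in cluster 8 too, at 2.28 against 4.63 in cluster 1 with TMM. The median share of mitochondrial UMIs was 22.8% in cluster 1 and 12.6% in cluster 8, against 3.52% to 5.76% in the other 12 epithelial clusters. Its part in the parietal values was not tested.

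Pit maturation in the corpus was seen in both datasets. In dataset 2, the 4 class I genes and the 3 loading genes were higher in mature pit cells than in pre-pit cells in both pools. *B2m* was at 761 and 719 CPM (pools K and T) in mature pit cells and 357 and 349.9 in pre-pit cells. *H2-K1* was at 749 and 743 against 557 and 565, and *H2-D1* at 685 and 770 against 442 and 467. The pools of the 2 stages did not overlap for these genes. *H2-T23* was at 78.0 and 109 against 20.9 and 22.4, *Tap1* at 28.2 and 28.2 against 5.63 and 8.73, *Tap2* at 9.70 and 18.2 against 4.93 and 6.45, and *Tapbp* at 126 and 127 against 83.8 and 87.5. The log2 fold changes from the fit across all genes were 2.26 ± 0.18 (SE) for *H2-T23*, 2.08 ± 0.21 for *Tap1*, 1.46 ± 0.38 for *Tap2*, 1.20 ± 0.08 for *B2m*, 0.82 ± 0.12 for *H2-D1*, 0.70 ± 0.13 for *Tapbp* and 0.55 ± 0.09 for *H2-K1*. In the same fit 10.4% of 13894 genes were called at an adjusted p of 0.05, 6.52% as higher and 3.84% as lower. The members were listed with this contrast known, so nothing is read from the comparison.

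The smaller dataset 1 gave part of this pattern in corpus cells (26 mature pit and 46 pre-pit cells). *H2-T23* was at 82.4 and 81.0 CPM (tubes 1 and 2) in mature pit cells and 19.3 and 22.6 in pre-pit cells, a log2 fold change of 2.18 ± 0.21. *H2-D1* was at 598 and 678 against 399.6 and 395 (0.87 ± 0.15), and *Tapbp* at 93.4 and 96.1 against 79.5 and 79.1 (0.45 ± 0.18). *B2m* was not higher. It was at 193 and 307 in mature pit cells and 276 and 323 in pre-pit cells, with overlapping pools and a log2 fold change of -0.07 ± 0.24. *H2-K1* was at 443 and 545 against 494 and 592 (0.05 ± 0.14), *Tap1* at 7.69 and 10.1 against 3.58 and 10.2 (0.68 ± 0.59), and *Tap2* at 7.69 and 2.53 against 4.30 and 6.78 (0.19 ± 0.66). Mature pit cells of dataset 2 held *B2m* at 740 ± 29.6 CPM and those of dataset 1 at 250.4 ± 80.6. *H2-K1* (746 ± 4.30 and 494 ± 72.4) and *Tap1* (28.2 ± 0.0154 and 8.91 ± 1.72) were lower in dataset 1 too, while *H2-T23* (93.7 ± 22.1 and 81.7 ± 1.03) and *H2-D1* (728 ± 59.96 and 638 ± 56.7) had overlapping SDs. The datasets differed in tissue, in the order of the enzymes used for dissociation, in sort and in depth, which cannot be told apart here. In dataset 1 12.9% of 10229 genes were called in this contrast, 7.08% as higher and 5.86% as lower.

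Antral pit cells (49 mature pit and 32 pre-pit cells) held *H2-T23* at both stages. Mature pit cells were at 94.9 and 76.7 CPM and pre-pit cells at 101 and 105, a log2 fold change of 0.03 ± 0.16. The heavy chains *H2-D1* (666 and 521 against 479.6 and 447, 0.63 ± 0.15) and *H2-K1* (597 and 671 against 572 and 629, 0.35 ± 0.14) and *Tapbp* (100.2 and 77.6 against 66.3 and 78.6, 0.60 ± 0.19) had higher fitted values in mature cells, though the *H2-K1* and *Tapbp* pools overlapped between the stages. *B2m* was at 174 and 119 against 209 and 292 (-0.46 ± 0.25), *Tap1* at 5.83 and 6.74 against 16.6 and 8.27 (-0.79 ± 0.56), and *Tap2* at 7.42 and 6.74 against 5.53 and 2.07 (1.05 ± 0.69). In this contrast 14% of genes were called, 8.29% as higher and 5.66% as lower. *Tap2* (1.05 ± 0.69 in the antrum and 0.19 ± 0.66 in the corpus) and *Tapbp* (0.60 ± 0.19 and 0.45 ± 0.18) had larger fold changes in the antrum. The antral fold change less the corpus fold change was -2.15 ± 0.27 for *H2-T23*, -1.47 ± 0.82 for *Tap1*, -0.39 ± 0.35 for *B2m*, 0.30 ± 0.20 for *H2-K1* and -0.24 ± 0.21 for *H2-D1*. Of all genes 0.0293% were called in that difference, 0.0196% as higher and 0.00978% as lower. With the pools scaled by their totals instead of TMM, the median of all genes moved by over 0.1 in these contrasts, from -0.02 to -0.16 in dataset 2, from -0.03 to -0.22 in the corpus of dataset 1 and from near 0 to -0.28 in the antrum, so fold changes near 0 carry that uncertainty.

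The antral pre-pit cluster was not made of one kind of cell. The genes that led it by fold were *Zg16*, *Muc2*, *Tff3*, *Fcgbp* and *Clca1*, all goblet cell genes, followed by *Ido1*, *Ifit1bl1*, *Ccl6*, *Gsdmc4* and *Muc3a*. The *Muc2* counts came from 2 of the 32 cells, which held 218 and 833 *Muc2* UMIs, 11 and 4 UMIs of the pit cell gene *Gkn1*, and 7 and 25 UMIs of *H2-T23*. The other 30 cells held 0 *Muc2* UMIs. The 2 *Muc2* cells also held 10 of the 151 *B2m* UMIs of antral pre-pit cells in tube 1 and 80 of the 141 in tube 2. The antral *B2m* fold change and its difference from the corpus given above include them, and so depend on 1 cell in tube 2. Without these 2 cells the *H2-T23* level of antral pre-pit cells was 92.8 and 57.6 CPM, the log2 fold change with maturation 0.44 ± 0.20, and its difference from the corpus -1.74 ± 0.31. In tube 1, 1 of the remaining 17 cells held 32 of 66 *H2-T23* UMIs (48.5%), and in tube 2, 1 of 13 held 8 of 26 (30.8%). The median cell of the antral pre-pit cluster held 0.60 *H2-T23* UMIs per 10000 (5th to 95th percentile 0 to 6.72), and the median antral mature pit cell 0.71 (0.20 to 1.84). A few cells therefore carried much of the antral pre-pit level.

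**Figure D2:**
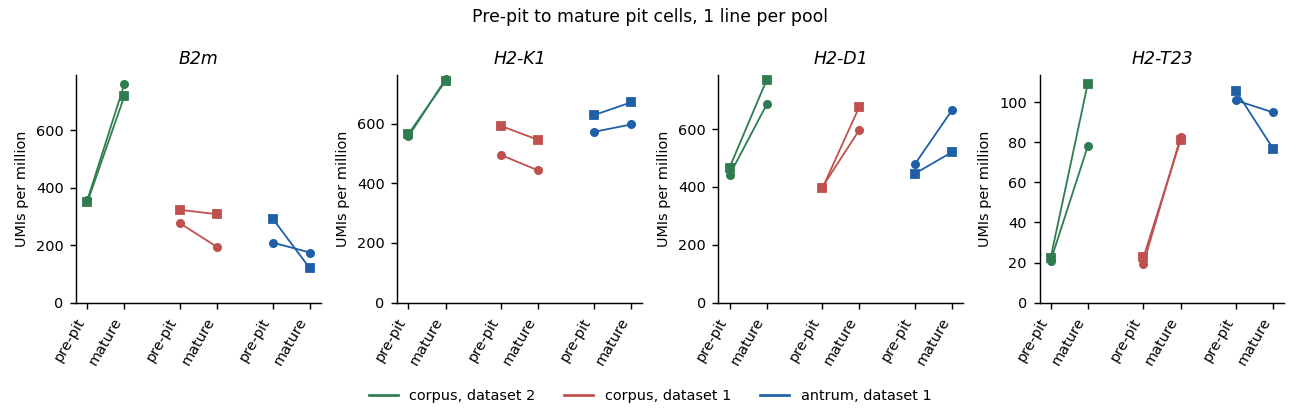
Level (CPM) of *B2m*, *H2-K1*, *H2-D1* and *H2-T23* in pre-pit and mature pit cells, 1 line per pool (circles, pool K or tube 1; squares, pool T or tube 2), for the corpus of dataset 2 and the corpus and antrum of dataset 1. *H2-T23* goes from 20.9 and 22.4 to 78.0 and 109 in the corpus of dataset 2. In the antrum it goes from 101 and 105 to 94.9 and 76.7. These values are a description and carry no test. In tube 2, 1 cell with many *Muc2* UMIs held 80 of the 141 *B2m* UMIs of antral pre-pit cells.

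Antral and corpus pit cells were also compared over both stages, as the mean of the mature and pre-pit values. These are the cells of the contrasts by which the genes were chosen, so the values carry no test. The log2 difference of *H2-T23* was 1.19 ± 0.13 in favour of antral pit cells, and 0.98 ± 0.16 without the 2 *Muc2* cells. That of *B2m* was -0.52 ± 0.17, and -0.79 ± 0.17 without the 2 cells. *H2-D1* was at 0.05 ± 0.11, *Tapbp* at -0.12 ± 0.13 and *H2-K1* at 0.24 ± 0.10. Of all genes 9.24% were called in this comparison, 5.48% as higher and 3.75% as lower. The antral fold is an average over stages whose corpus values were 81.7 ± 1.03 CPM when mature and 21.0 ± 2.30 before.

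Before pit maturation, pre-pit cells were set beside isthmus cells. The pre-pit cells belong to the contrasts by which the genes were chosen, so these values carry no test either. In dataset 2 *H2-T23* was at 20.9 and 22.4 CPM in pre-pit cells and 17.1 ± 1.35 in isthmus cells, a log2 difference of 0.56 ± 0.18. *Tap1* was at 7.18 ± 2.19 against 12.4 ± 0.129 (-0.55 ± 0.20) and *B2m* at 353 ± 4.82 against 466 ± 6.17 (-0.19 ± 0.08). *H2-K1* (0.02 ± 0.09), *H2-D1* (0.12 ± 0.12), *Tap2* (0.10 ± 0.34) and *Tapbp* (0.07 ± 0.11) had differences below their SE, and with totals these 4 turned negative (-0.20, -0.09, -0.12 and -0.15), as the median of all genes moved from near 0 to -0.21. Of all genes 27.8% were called in this contrast, 12.3% as higher and 15.5% as lower. In dataset 1 *H2-T23* was at 19.3 and 22.6 CPM in corpus pre-pit cells and 14.2 and 14.7 in isthmus-like cells (0.75 ± 0.26), while *B2m* was at 276 and 323 against 319 and 265 (0.28 ± 0.23), with overlapping pools. There 20.4% of genes were called, 9.6% as higher and 10.8% as lower, and the median moved from -0.02 to -0.27 with totals.

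The other 5 contrasts hold no pit cells and were tested. In neck cells 5 of 9 members were higher than in isthmus cells of dataset 2 and none lower, where 50.7% of genes were called, 26.4% as higher and 24.3% as lower. *B2m* rose by 0.78 ± 0.08 (adjusted p = 3.1e-06, edgeR quasi-likelihood test with Benjamini-Hochberg adjustment over 13894 genes), from 471 and 462 CPM in isthmus cells to 765 and 763. *Tap2* rose by 1.22 ± 0.25 (adjusted p = 0.00128), *H2-T23* by 0.87 ± 0.15 (adjusted p = 0.000286), *Tapbp* by 0.40 ± 0.11 (adjusted p = 0.00690) and *H2-K1* by 0.37 ± 0.09 (adjusted p = 0.00355). *H2-D1*, with -0.00 ± 0.12, and *Tap1*, with 0.02 ± 0.16, did not pass. The 5 calls held without isthmus cluster 11. Without pool T, *H2-K1* (adjusted p = 0.141) and *Tapbp* (0.2397) no longer passed. In dataset 1, 3 of 8 members were higher in neck than in isthmus-like cells and none lower, where 29.3% of genes were called, 13.1% as higher and 16.2% as lower. They were *B2m* (751 and 774 CPM against 319 and 265, 1.40 ± 0.22, adjusted p = 0.000125), *H2-K1* (0.55 ± 0.14, adjusted p = 0.00599) and *Tap2* (2.29 ± 0.62, adjusted p = 0.00898). *Tap2* lost its call in DESeq2 (adjusted p = 0.0990) and without either tube, and *H2-K1* without tube 2 (0.152). *B2m*, *H2-K1* and *Tap2* were thus called in neck cells of both datasets. The member median was 0.78 in dataset 2 and 0.47 in dataset 1, against 0.06 and -0.04 over all genes tested.

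Chief cells were lower than neck cells for the heavy chains. *H2-T23* fell by 1.49 ± 0.27 (adjusted p = 0.000557), *H2-K1* by 0.48 ± 0.09 (adjusted p = 0.000778) and *H2-D1* by 0.39 ± 0.12 (adjusted p = 0.0239). *B2m* rose by 0.48 ± 0.08 (adjusted p = 0.000287) on the TMM scale, but its level in CPM was 633 and 580 CPM in chief cells and 765 and 763 in neck cells, and with totals its fold change was -0.33. The scaling matters here because the median of all genes moved from -0.07 to -0.89 without TMM. These were 1 higher and 3 lower of 9 members, where 38.6% of genes were called, 18.6% as higher and 19.9% as lower. With totals 0 were higher and 6 lower, *B2m*, *Tap1* and *Tapbp* being the additional ones, where 70.5% of genes were called. The *H2-D1* call was lost in DESeq2 (adjusted p = 0.0633) and without pool K (0.1197).

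Parietal cells were lower than isthmus cells for all 3 heavy chains and for *Tap1* in both datasets. In dataset 2 *H2-T23* fell by 2.03 ± 0.20 (adjusted p = 5.1e-07), *Tap1* by 1.80 ± 0.18 (8.6e-07), *H2-D1* by 1.36 ± 0.12 (1.9e-07) and *H2-K1* by 1.26 ± 0.09 (1.7e-08). In dataset 1 the same genes fell by 2.22 ± 0.38 (adjusted p = 5.7e-05), 1.86 ± 0.68 (0.0244), 1.48 ± 0.16 (2.0e-07) and 1.21 ± 0.14 (8.1e-07). The *Tap1* call of dataset 1 rested on few UMIs and was lost in DESeq2 (adjusted p = 0.129) and without tube 2 (0.4935). *Tapbp* rose by 0.59 ± 0.11 (adjusted p = 0.000199) and 0.46 ± 0.16 (0.0182) with TMM, and with totals neither passed (0.09, adjusted p = 0.416, and adjusted p = 0.694), nor did that of dataset 1 in DESeq2 (0.184) or without tube 1 (0.113) or tube 2 (0.155). *B2m* did not pass in either dataset (0.12 ± 0.08 and 0.26 ± 0.22), but did in DESeq2 in dataset 2 (adjusted p = 0.0463) and without tube 1 in dataset 1 (0.0347), and with totals it was called in dataset 2 in the other direction (-0.38, adjusted p = 0.000676). Each dataset thus had 1 member higher and 4 lower with TMM. With the pool as a block *Tap2* (0.50, adjusted p = 0.00907) and *Cd74* (-1.31, adjusted p = 0.0328) passed as well in dataset 2. The 5 calls of dataset 2 held without isthmus cluster 11. In dataset 2, 71.8% of genes were called, 35.2% as higher and 36.7% as lower, and in dataset 1 60.3%, 28.3% and 32%. Without TMM the median of all genes moved from -0.05 to -0.55 in dataset 2 and from -0.07 to -0.45 in dataset 1, and the 4 falls were called in both datasets under that scaling. The member median was -1.26 and -1.34, against -0.05 and -0.07 over all genes.

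**Figure D3:**
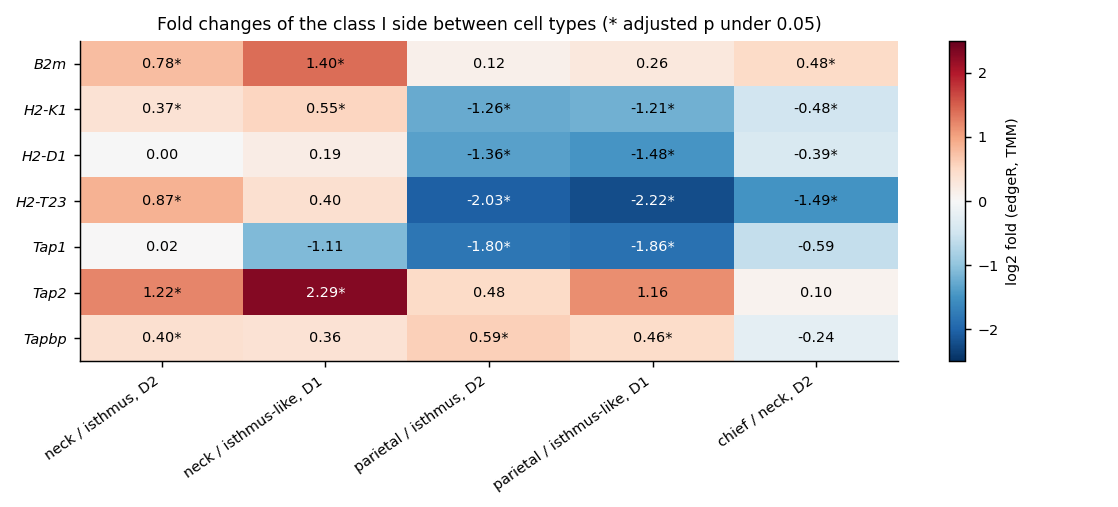
Grid of the log2 fold changes (edgeR, TMM) of 7 class I and loading genes in the 5 tested contrasts (D1 and D2 are the datasets), coloured from blue (lower) to red (higher), with an asterisk where the adjusted p was under 0.05. *H2-K1*, *H2-D1*, *H2-T23* and *Tap1* lie between -1.21 and -2.22 in parietal cells of both datasets, and *B2m* at 0.78 and 1.40 in neck cells.

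Other genes of the pathway were taken from 6 lists. Peptides for class I are cut by the immunoproteasome, whose inducible subunits are encoded by *Psmb8*, *Psmb9* and *Psmb10*. The lists were made with these results known, so their values in the contrasts of pit cells are given without a test. In dataset 2 *Psmb9* was counted 66 and 69 times in mature pit cells and 27 and 40 times in the more numerous pre-pit cells, a log2 fold change of 2.07 ± 0.22. *Psmb8* was counted 20 and 36 times against 10 and 9 (2.59 ± 0.43). In the antrum the sign of *Psmb8* was the opposite, with 7 and 0 UMIs in mature pit and 10 and 10 in pre-pit cells (-2.59 ± 0.86). *Psmb9* was counted 13 and 10 times against 6 and 3 there (0.29 ± 0.54). The antral pre-pit counts of both genes include the 2 *Muc2* cells described above. In dataset 2 *Nlrc5*, the transactivator of class I genes, was at 8 and 12 UMIs in mature pit cells and at 0 UMIs in both pools of pre-pit cells, so no fold is given. In the corpus of dataset 1 *Psmb9* was counted 12 and 11 times in mature pit cells and 10 and 6 times in pre-pit cells (1.14 ± 0.46). *Psmb8* was counted 0 and 4 times there against 3 and 1 (0.61 ± 1.37). The log2 fold changes there were 0.85 ± 0.14 for *Ifi30*, a lysosomal thiol reductase, and 0.52 ± 0.16 for *Ifngr2*, a chain of the interferon γ receptor. In the antrum they were 1.00 ± 0.31 for *Rfxank*, a subunit of the X box factor, 0.68 ± 0.20 for *Ifngr1* and 0.57 ± 0.14 for *Ifi30*. Between antral and corpus pit cells the log2 difference was 1.13 ± 0.21 for *Psmb10* and 0.57 ± 0.13 for *Psme1*, a subunit of the proteasome activator.

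In neck cells of dataset 2 4 of 7 other class I genes were higher than in isthmus cells, with *H2-Q2* at 2.49 ± 0.33 (adjusted p = 3.0e-05) and *Cd1d1*, which presents lipids, at 1.88 ± 0.34 (adjusted p = 0.000461). Of all genes 26.4% were higher in this contrast. Reads of the *H2-Q* genes may be shared with near-identical copies, so these values are uncertain. *H2-DMb1*, which helps to load class II molecules, rose by 1.56 ± 0.17 (adjusted p = 4.6e-06). *Icosl*, a co-stimulatory ligand, *Nfyb*, a subunit of the Y box factor, and *Ifngr1* fell by 1.58 ± 0.25, 0.60 ± 0.09 and 0.57 ± 0.11 (adjusted p = 0.000138, 0.000152 and 0.000511). In neck cells of dataset 1 *Irf1*, an interferon-induced transcription factor, rose by 2.93 ± 0.33 (adjusted p = 2.9e-06) and *Ifngr1* fell by 0.80 ± 0.21 (adjusted p = 0.00821), though the latter lost its call without 1 of the tubes (adjusted p = 0.697). In dataset 2 *Irf1* was at 175 and 115 CPM in neck cluster 0 and between 18.4 and 30.3 in the other 3 neck clusters, and at 147 and 49.5 in isthmus cluster 11 and between 17.8 and 44.7 in the other 4 isthmus clusters. The cathepsin gene *Ctsl* (1.30 ± 0.30, adjusted p = 0.00285) and *H2-T22* (1.02 ± 0.31, adjusted p = 0.0181) rose and *Nfyc* (-0.85 ± 0.25, adjusted p = 0.0161) and *Ifi30* (-0.49 ± 0.15, adjusted p = 0.0174) fell in dataset 1.

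In parietal cells of dataset 2 all 7 other class I genes tested were lower than in isthmus cells, with either scaling, where 36.7% of all genes were lower with TMM and 55.7% with totals. *H2-Q10*, *H2-Q4* and *Cd1d1* fell by 3.54 ± 0.55, 2.75 ± 0.43 and 2.55 ± 0.60 (adjusted p = 7.4e-05, 5.9e-05 and 0.00166). Of 8 transcriptional regulators of MHC genes 6 were lower and 1, *Nfyc* (0.78 ± 0.09, adjusted p = 3.0e-06), higher. *Irf8* (2.34 ± 0.25, adjusted p = 1.4e-06) and *Psme1* (1.28 ± 0.09, adjusted p = 1.0e-08) rose. In dataset 1 *Irf8* (1.63 ± 0.56, adjusted p = 0.0189), *Psme1* (1.39 ± 0.14, adjusted p = 6.2e-08) and *Ctsl* (0.98 ± 0.29, adjusted p = 0.00719) rose, and *Psmb9* (-3.43 ± 0.59, adjusted p = 6.0e-05), *Ifngr1* (-1.80 ± 0.22, adjusted p = 8.9e-07) and *Rfx5* (-1.62 ± 0.58, adjusted p = 0.0230) fell. The *Irf8* and *Rfx5* calls of dataset 1 were lost in DESeq2 (adjusted p = 0.195 and 0.138). *Psmb9* fell in dataset 2 too, from 361 and 506 UMIs in isthmus cells to 38 and 36 in parietal cells (2.41 ± 0.19 lower). *Psmb9* and the heavy chains were thus low in the same cells, while *Psme1* was high.

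In chief cells 6 of 10 genes of peptide supply and 6 of 9 of the interferon γ route were lower than in neck cells (8 and 9 with totals), and 2 and 0 were higher. Of all genes 19.9% were lower in this contrast with TMM and 65.4% with totals. *H2-DMb1* fell by 3.00 ± 0.32 (adjusted p = 6.4e-06) and *Icosl* by 2.95 ± 0.92 (adjusted p = 0.0207), and *H2-Q10* was at 28 and 51 UMIs in neck cells and 0 in both pools of chief cells. *H2-Q2* (1.63 ± 0.33, adjusted p = 0.00151), *Cd1d1* (1.30 ± 0.38, adjusted p = 0.0150) and *H2-T22* (0.77 ± 0.15, adjusted p = 0.00108) rose, the latter 2 with TMM and not with totals. Pre-pit against isthmus cells are again given without a test. In dataset 2 the log2 differences were 0.51 ± 0.11 for *Rfxank*, 0.43 ± 0.10 for *Ifi30*, 0.26 ± 0.08 for *Psme2*, -1.77 ± 0.59 for *H2-Q10* and -2.54 ± 0.33 for *Tnfsf9*, a co-stimulatory ligand, and *Nlrc5* was at 17 and 21 UMIs in isthmus cells and 0 in pre-pit cells. In dataset 1 they were 1.00 ± 0.30 for *Rfxank*, 0.68 ± 0.20 for *Irf2*, 0.50 ± 0.14 for *Ifi30*, -0.66 ± 0.17 for *Psme1* and -0.98 ± 0.34 for *Nfyb*.

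The share of cells with at least 1 *H2-T23* UMI was compared at a depth of 10000 UMIs in dataset 2. It followed the order of the levels, except for parietal and chief cells. Intervals overlapped for those types, and for pre-pit and isthmus cells. Cells were thinned to 10000 UMIs, and those with fewer were left out, so that 117 of 121 mature pit cells remained. The share was then 43.6% of mature pit cells (51 of 117, Wilson 95% interval 34.9 to 52.6), 25.8% of neck cells, 18.2% of pre-pit cells (14.2 to 23.1), 14.3% of isthmus cells (12.5 to 16.3), 3.14% of parietal cells (2.08 to 4.71) and 2.78% of chief cells (1.19 to 6.34). Without thinning, the shares were 83.5% of mature pit cells, 48.8% of pre-pit cells, 46.2% of neck cells and 11.3% of parietal cells. Pre-pit and neck cells thus stood in the reverse of their order in CPM. Parietal cells, at 3.14%, set the level against which the other shares are read. In dataset 1 the thinned share was 59.2% of antral mature pit cells, 50% of corpus mature pit cells (32.1 to 67.9), 31.3% of antral pre-pit cells (18.0 to 48.6), 25% of neck cells (14.6 to 39.4), 23.1% of isthmus-like cells (13.7 to 36.1), 15.9% of corpus pre-pit cells (7.93 to 29.4) and 1.75% of parietal cells. The shares of neck, isthmus-like and corpus pre-pit cells run against their levels in CPM and their intervals overlap, so no order is read from them, and the shares of antral pre-pit and corpus mature pit cells changed places when cells were thinned to 5000 UMIs (21.9% and 19.2%). The intervals cover counting error only. Levels per cell were skewed in mature pit cells of dataset 2. The median cell held 4.71 *B2m* UMIs per 10000, with 5% of cells above 25.9, and the median pre-pit cell 3.05, with 5% above 7.76.

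Plates within a pool showed how far the pool values rest on single plates. In mature pit cells of dataset 2, the lowest, median and highest of 6 plates were 541, 763 and 1006 CPM for *B2m* in pool K and 485, 612 and 1200.1 in pool T. For *H2-T23* they were 37.1, 79.2 and 102 in pool K and 79.5, 104 and 152 in pool T. The plates of the pools overlapped for both genes. Of 48 pairs of a member and a type with at least 20 UMIs, 1 had plates that did not overlap between the pools, *H2-D1* in neck cells (411 to 454 CPM in pool K, 458 to 509.8 in pool T). Among all genes with as many UMIs, 4.31% had plates that did not overlap in neck cells, 2.28% in isthmus cells, 1.59% in parietal cells, 1.34% in pre-pit cells, 0.938% in chief cells and 0.798% in mature pit cells. Pool, operator and plate cannot be told apart beyond this.

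Outside these types the levels spread more widely. Endothelial-like cells (15 cells) held *B2m* at 6730 and 6305 CPM, *H2-D1* at 2664 and 1974 and *Tap2* at 210.3 and 225. Enterocyte-like cells (70 cells), a duodenal cell type, held *B2m* at 4278 and 4903 CPM, *H2-K1* at 2003 and 2161, *H2-T23* at 249.8 and 243 and *Psmb8* at 177 and 266. Chief-like cells (21 cells) held *B2m* at 529 and 588 CPM and *H2-T23* at 2.27 and 2.42. In dataset 2, 13 leukocytes held *B2m* at 7293 and 6993 CPM and 9 endothelial cells at 3888 and 7748. Among the endocrine cells, ECL cells (53 cells), which release histamine, held *H2-T23* at 297 and 292 CPM, above the 78.0 and 109 of mature pit cells, with *H2-K1* at 1197 and 1354 and *B2m* at 463 and 571. X/A cells, which secrete ghrelin, held *B2m* at 1104 and 1209 and *H2-T23* at 30.4 and 67.3, and D cells, which secrete somatostatin, *B2m* at 246 and 260.0 and *H2-T23* at 56.9 and 63.03. *B2m* and the heavy chains thus did not follow one order across the endocrine types. Small clusters give few UMIs, and these values carry no test.

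**Figure D4:**
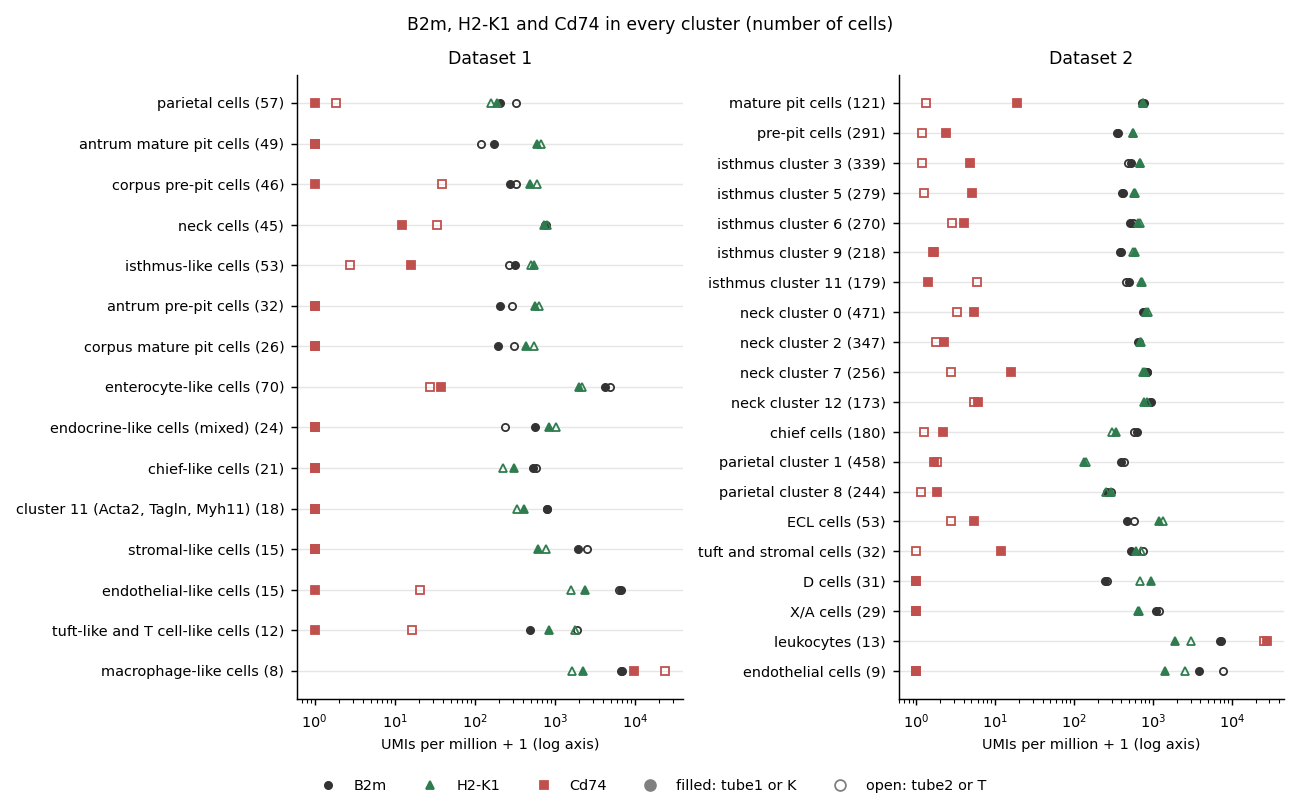
Level of *B2m*, *H2-K1* and *Cd74* (CPM plus 1, log axis) in every cluster of both datasets, with the number of cells in brackets; filled points are tube 1 or pool K and open points tube 2 or pool T. *Cd74* stands out in leukocytes of dataset 2 and macrophage-like cells of dataset 1, where it reached 27837 and 23975 CPM in single pools, and *B2m* in endothelial, leukocyte, macrophage-like and enterocyte-like clusters.

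Class II genes were low in the gastric epithelium beside leukocytes. Leukocytes of dataset 2 held *Cd74* at 27837 and 25330 CPM, *H2-Aa* at 11943 and 13720 and *H2-Ab1* at 9611 and 13188, and macrophage-like cells of dataset 1 (8 cells) held *Cd74* at 9671 and 23975. In the 6 epithelial types of dataset 2, *Cd74* lay between 0.63 and 9.18 CPM, *H2-Aa* between 0.03 and 2.77 and *H2-Ab1* between 0.08 and 2.54. The upper value of each belonged to mature pit cells, where it differed between pools (*Cd74* 18.0 CPM in pool K and 0.34 in pool T) and where 1 cell held 30 of 40 *Cd74* UMIs. In dataset 1 *Cd74* was at 11.3 and 33.3 CPM in neck cells, where 4 of 45 cells held it and 1 held 22 of 37 UMIs. It was at 0 and 38.4 CPM in corpus pre-pit cells (26 of 34 UMIs in 1 cell), at 15.0 and 1.77 in isthmus-like cells (20 of 23 in 1 cell), at 0 and 0.85 in parietal cells, and at 0 UMIs in the other 3 types. In the tested contrasts none of the 3 class II members was called, but *Cd74* passed with the pool as a block in neck (adjusted p = 0.0351) and parietal cells (0.0328) of dataset 2. Without the filter on low counts it passed in all 5, higher in neck cells (adjusted p = 0.00194 in dataset 2 and 0.00565 in dataset 1) and lower in parietal (0.00297 and 0.000188) and chief cells (0.00574). *H2-Aa* did not pass the filter on low counts in either dataset, nor *H2-Ab1* in dataset 1. *Ciita*, which encodes the transactivator of class II genes, was counted 0 times in all but 1 of the 14 epithelial clusters of dataset 2, in which it was counted once, and once each in neck and isthmus-like cells of dataset 1. It was counted 20 and 3 times in leukocytes and 4 and 10 times in macrophage-like cells. *H2-Eb1*, a second class II β chain, was at 10777 and 11128 CPM in leukocytes, and *H2-DMa*, a peptide exchange factor, at 790.2 and 532. Enterocyte-like cells held *H2-Ab1* at 77.1 and 50.4 CPM, *Cd74* at 37.4 and 26.95 and *Ciita* at 0 and 4 UMIs. The *H2-Ab1* level of that type was above that of the gastric types and below that of leukocytes, while its *Cd74* level overlapped those of neck and corpus pre-pit cells of dataset 1.

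A few epithelial cells carried UMIs of all 3 class II members. There were 8 among the 4134 cells of the gastric types compared above, 6 of 3826 in dataset 2 (0.157%) and 2 of 308 in dataset 1 (0.649%), against 10 of 13 leukocytes and 7 of 8 macrophage-like cells. Of the enterocyte-like cells, which are outside that count, 6 of 70 held all 3, and of the 21 chief-like cells 0 did. In dataset 2 they fell in 5 of 14 clusters and in both pools. A mature pit cell of pool K held 30 *Cd74*, 8 *H2-Aa*, 10 *H2-Ab1* and 4 *H2-Eb1* UMIs among 8488. A neck cell of cluster 7 held 33 *Cd74*, 2 *H2-Aa* and 7 *H2-Ab1* UMIs among 15923, and a corpus pre-pit cell of dataset 1 held 26, 12 and 3 among 55693. The mitochondrial share was 13.2% in the mature pit cell (cluster median 4.39%) and 11.9% in the isthmus-like cell of dataset 1 (4.31%). In the other cells with all 3 genes it was 3.94% to 5.55%. The median mature pit cell of dataset 2 held 43578 UMIs. None of the 8 cells held a UMI of a leukocyte marker. Of the 24 markers, which included *Ptprc* and *Lyz2*, 23 were listed in dataset 1 and 21 in dataset 2. Over the epithelial sums, the summed level of those markers was 0.469 to 3.18 CPM in dataset 2 and 0 to 4.15 in dataset 1, and the single marker with the highest level reached 1.54 (*Trbc2*) and 2.07 (*C1qb*). In leukocytes it was 33705 and 21858 CPM. Of *H2-Eb1*, the isthmus-like and the corpus pre-pit cell of dataset 1 held 2 and 6 UMIs, and the 6 cells of dataset 2 held 4, 0, 4, 0, 4 and 0. The isthmus-like cell held 1 *Ciita* UMI and the others 0. Whether these 8 cells express class II genes or held free RNA was not tested. Levels this low rest on few UMIs, since *Cd74* at 0.63 CPM in parietal cells of dataset 2 stands for 14 and 8 UMIs.

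The genes whose levels were most like the mean of *B2m*, *H2-K1* and *H2-D1* over the 14 epithelial clusters of dataset 2 were *Synpo* (Pearson r = 0.96), *Lrrc26* (0.94), *Pias3* (0.94), *Cd63-ps* (0.94) and *Lgals12* (0.94). Over the 7 epithelial clusters of dataset 1 the same 5 gave 0.83, 0.91, 0.70, 0.95 and 0.92. For the class II members, of which *Cd74* and *H2-Ab1* entered, the 5 were *Zbtb39* (0.88), *Fam102b* (0.86), *Apol7a* (0.85), *Igtp* (0.85) and *Trim30a* (0.83), and of these *Zbtb39* gave 0.41 and *Apol7a* -0.65 in dataset 1. These values describe clusters that share libraries and were chosen out of all genes, and the class II ones rest on a few UMIs a cluster.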

How the data were processed

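The counts, per the labels and the study's methods, are UMI counts per gene and cell that the authors made from Quartz-Seq2 reads (demultiplexed with bcl2fastq 2.20.0.422, aligned with STAR to GRCm39 with Gencode annotation, counted with Drop-seq tools) after cells under 2500 detected genes were removed. The deposited table also gives each cell's pool, plate, cluster and percent of mitochondrial UMIs. Per-plate tables of all wells, which hold the same wells before filtering, were not used. Levels (UMIs per 1000000 UMIs, CPM) were computed from counts summed per cluster or type and pool. Tests used edgeR 4.0.16 (glmQLFit, TMM, filterByExpr, adjusted p under 0.05) on 12 sums of 6 types in dataset 2 and 14 sums of 7 types in dataset 1, with 13894 and 10229 genes tested. DESeq2 1.42.0 was an alternative. The test script was tested on simulated data. The members and the lists were chosen with earlier results of these data known. Named genes are the 10 members, *Nlrc5*, *Ciita*, *Psmb8*, *Psmb9*, *H2-Eb1*, *H2-DMa* and *H2-Q7* (at most 6 UMIs in a cluster and pool, not described further), and for each contrast up to 3 called list genes in each direction, ranked by log2 fold change, each counted 10 times or more in each pool of the type where it was higher. The *Irf1* values of dataset 2 lie outside that rule and were added after they were seen. The comparisons of antral with corpus pit cells and of pre-pit with isthmus cells were planned with a test and are given without one, because they use the cells by which the members were chosen. A gene that the rule also names is not reported here. All types of 1 pool share its mice, which pairs them. Deviations of the pools from type means correlated at a median of 0.132 over 15 pairs of types in dataset 2 (12 over 0.1) and 0.0245 over 21 pairs in dataset 1 (0 over 0.1). No cell shared a well barcode with another cell of its plate. Doublets were not called. Of the 64-base stretches in the last 500 transcript bases, 14.6% for *H2-T23*, 9.77% for *H2-K1* and 4.55% for *H2-D1* also occur in another gene, so a few counts of these genes may belong to relatives. The pools are technical mixtures of 3 mice, so p-values measure the spread between pools.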

Additional observations from a re-analysis of the deposited data

Results flagged for a closer look

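*Cd74* in mature pit cells of pool K reached 62.7 CPM in 1 of 6 plates, and 21.7 in the next, a gap wide enough to set that plate apart from the other plates. The plate holds the cell with 30 *Cd74* UMIs described above. In pool T *Cd74* was at 1.66 CPM in 1 of 6 plates and 0 in the other 5. That level is 1 UMI, and with 0 elsewhere any plate that held it would be set apart. Of 16 groups of plates examined 2 were set apart in this way. Chance sets apart about 1 in 20, a rate that does not hold for counts this low.

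*Tap1* differed in direction between the regions of dataset 1. On the TMM scale its mean log2 difference between mature pit and pre-pit cells over the 2 tubes was -0.63 in the antrum and 0.74 in the corpus, with each tube on the same side in its region. The antral tubes gave -1.22 and -0.04, and tube 2 there rests on 8 UMIs in mature pit and 4 in pre-pit cells. Tube 2 of the corpus rests on 8 and 9 UMIs and gave 0.12 with TMM, but 10.1 against 10.2 CPM with totals, which is the other side. The difference between the regions was not tested, because the members were listed with these contrasts known.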

How the results depend on the processing

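Of 307 refitted values of members in the 5 tested contrasts, 275 kept their side of the threshold, 15 passed it and 15 lost it, and 2 reversed. A change of sign was counted as a reversal only where the main fit or the refit called the gene. The 275 can therefore include changes of sign among values that passed in neither. The reversed values were *B2m* in chief against neck cells (-0.33) and in parietal against isthmus cells of dataset 2 (-0.38), both with totals. With totals, 9800 genes were called in chief against neck cells in place of 5358 (712 higher and 9088 lower, against 2587 and 2771). Higher calls in dataset 2 went from 1715 to 636 in pre-pit cells, 3664 to 3125 in neck cells, 4885 to 2886 in parietal cells and 906 to 635 in mature pit cells, and in dataset 1 from 982 to 449 in pre-pit cells, 2899 to 1977 in parietal cells, 724 to 432 with corpus and 848 to 402 with antral maturation. With plates as the unit, 2590 genes were called with maturation in dataset 2 in place of 1439. DESeq2 called fewer genes in dataset 1, 863 in place of 2083 (pre-pit), 1458 in place of 2996 (neck), 548 in place of 945 (antrum against corpus), 672 in place of 1323 (corpus maturation) and 696 in place of 1427 (antral maturation). The difference between the maturation contrasts had 3 calls, 97 without a filter on low counts, 12 in DESeq2, and 7 without the 2 *Muc2* cells, an alternative chosen after seeing the data. Without isthmus cluster 11, likewise chosen after seeing the data, no member call changed in neck or parietal cells. With the pool as a replicate block the difference had 12, and the block changed member calls in dataset 2, where it added *Cd74* in neck (adjusted p = 0.0351) and parietal cells (0.0328), and *Tap2* in parietal cells (0.00907). Without pool K or T the calls of dataset 2 were 1225 to 1828 for pre-pit cells, 4256 to 4403 for neck cells, 3470 to 3538 for chief cells and 417 to 668 for maturation. Without tube 1 or 2 those of dataset 1 were 790 to 1027 for pre-pit cells, 1658 to 1694 for neck cells, 259 to 349 for antrum against corpus, 80 to 971 for corpus and 283 to 554 for antral maturation, and 0 to 2 for their difference. These refits leave 1 sum in each compared type, which is assumed to vary like the other types. The share of cells with an *H2-T23* UMI depended on depth. Without thinning it was 83.5% in mature pit, 48.8% in pre-pit, 46.2% in neck and 11.3% in parietal cells of dataset 2. Thinned to 5000 UMIs it was 39.7%, 10.3%, 13.4% and 0.997%, so pre-pit and neck cells changed places. In dataset 1 it was then 42.9% in antral and 19.2% in corpus mature pit cells, 21.9% in antral and 8.70% in corpus pre-pit cells, 7.55% in isthmus-like, 6.67% in neck and 1.75% in parietal cells.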
